A study of Glycine max with 12 samples.

Results

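In 1 soybean library, the single mutant replicate 2 labelled V5, 258 genes had almost no RNA while every other V5 library contained it. The genes were chosen from the V5 values by a rule: at most 0.1 CPM in single mutant V5 replicate 2, and more than 1 CPM in each of the other 5 V5 libraries. CPM is the count of a gene per 1000000 counts of its library. The 258 genes were taken from 56044 gene IDs, of which 27505 passed the 1 CPM floor in those 5 libraries, so 0.938% of the genes eligible by that floor were included. Because V5 values chose them, their loss in that library is given below as a description with no test.

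RNA-seq was done on soybean of the cultivar Thorne: a double mutant (edited at Gm20 and Gm10), a single mutant (edited at Gm20) and unedited wild type Thorne. Each genotype had 2 libraries at R5 and 2 at V5, which made 12 libraries in 6 groups. All plants were grown in the field, RNA came from material of 3 to 5 plants at each stage, and all 12 libraries carry the tissue label seed. V5 names a vegetative stage, whereas R5 names the onset of seed fill, so the labels of the V5 libraries give a vegetative stage and a seed tissue together. The study's title gives its subject as editing of the gene model under a major seed protein locus and of its paralog. The edited genes could not be checked here, because the labels give no gene ID for them. Nothing in the labels says that the 2 libraries of a group came from separate plots or plants, so the p-values measure only the spread between libraries, which may be technical.

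Soybean is an ancient polyploid in which many genes persist as closely related copies. During seed filling, the cotyledons of the embryo take up sugars and amino acids and lay down storage protein and oil, under a transcript programme that differs widely from that of leaves, stems and roots. Genes specific to an organ or a stage are therefore often abundant in one sample and at or near 0 counts in another. The IDs of the 258 genes are of the Glyma form, and none of the 56044 IDs matched the RefSeq gene table used here, so no gene name, product or role is attached to any of them, and the tissue label could not be checked against seed or leaf markers. Levels are compared between libraries for the same gene, not between genes per unit of length, and closely related copies may share reads.

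Total counts lay between 26966329 and 34626177 in the R5 libraries and between 20410270 and 21066989 in the V5 libraries. Single mutant V5 replicate 2 was the deepest V5 library, and 40771 genes had a count in it, against 38977 to 40214 genes in the other 5. Over the 10413 genes above 10 CPM in every V5 library, the log2 ratio between single mutant V5 replicate 2 and any other V5 library had an SD of 1.08 to 1.14, against 0.172 to 0.355 among the other 5. At R5, double mutant replicate 1 and single mutant replicate 2 stood closer to each other (SD 0.105 over 15825 genes) than did any of the other 14 pairs of R5 libraries, at 0.172 to 0.722, although their genotype labels differ. The R5 class counts and the R5 fold change medians are therefore also given without these libraries.

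The 258 genes were almost undetected in single mutant V5 replicate 2. There, 82 of them had 0 counts, 97 had 1 count and 79 had 2 counts. Summed over the 258 genes, that library held 255 counts, or 12.1 CPM. The same sum was 1720 and 1915 CPM in the double mutant V5 libraries, 1565 CPM in single mutant V5 replicate 1, and 1538 and 1650 CPM in the wild-type V5 libraries. The median gene stood at 0.0475 CPM in single mutant V5 replicate 2, against 3.86 and 4.24 CPM in double mutant libraries, 3.22 CPM in the other single mutant library, and 3.26 and 2.34 CPM in wild-type libraries. Had the genes been present at their mean of the other 5 libraries, the depth of single mutant V5 replicate 2 would have given a median of 77.7 counts per gene, with a range of 24.9 to 1933. For the 82 genes with 0 counts, a floor of 3 counts in that library, or 0.142 CPM, places the level there at least 10.3-fold to at least 256-fold lower than the mean of the other 5. These floors cover counting error only.

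**Figure D1:**
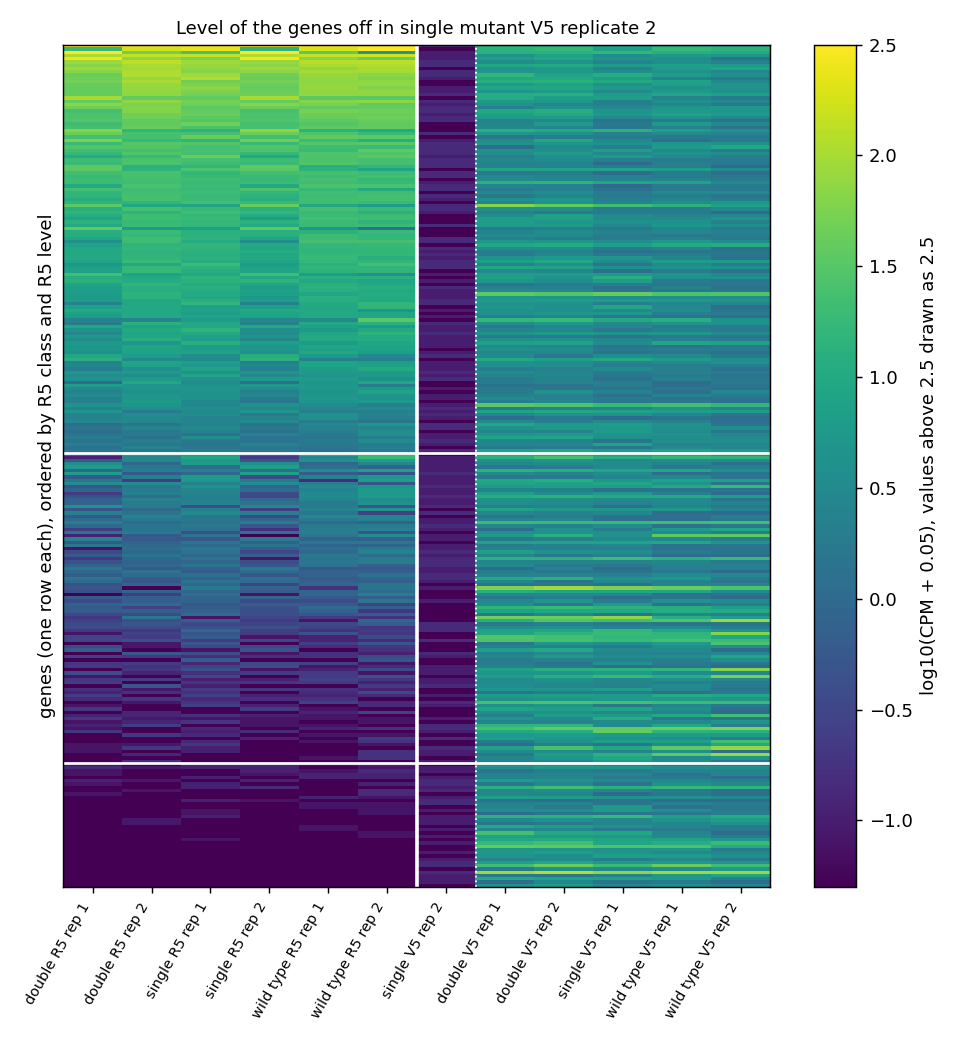
CPM of the 258 genes (rows, ordered by their R5 class and level) in each library (columns, R5 left of V5, with single mutant V5 replicate 2 first among the V5 columns), on a log colour scale. The column of single mutant V5 replicate 2 never exceeds 0.1 CPM, the other 5 V5 columns are above 1 CPM throughout, and the R5 columns divide the genes into 38 at 0.1 CPM or less, 95 in between and 125 above 1 CPM.

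Most of the genes were of low to moderate level where they were present. The mean over the other 5 V5 libraries had a lower quartile of 2.29 CPM, a median of 3.69 CPM and an upper quartile of 6.50 CPM, and it reached 91.7 CPM. It was above 10 CPM for 31 genes and above 20 CPM for 16, while 40 genes averaged under 2 CPM. The 27505 genes above the same floor had a median of 10.2 CPM.

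Glyma.15G049200 had the highest V5 level of the 258. It had 2 counts (0.0949 CPM) in single mutant V5 replicate 2, against 91.8 and 121 CPM in double mutant libraries, 75.0 CPM in single mutant replicate 1, and 87.1 and 84.2 CPM in wild-type libraries. The other 5 libraries thus lay within a narrow range. At R5 this gene had 0 counts in all 6 libraries, where 3 counts correspond to 0.0866 to 0.111 CPM. Glyma.02G307500 came next, with 0.0475 CPM in single mutant V5 replicate 2, against 58.8 and 93.8 CPM in double mutant libraries, 56.6 CPM in single mutant replicate 1, and 41.9 and 26.0 CPM in wild-type libraries. At R5 it stood at 0.454 and 0 CPM in double mutant libraries, 1.68 and 0.756 CPM in single mutant libraries, and 0.130 and 1.40 CPM in wild-type libraries, below every V5 library except single mutant replicate 2.

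The rule cuts through a continuous range. Among the 27505 genes, 146 lay between 0.1 and 0.2 CPM in single mutant V5 replicate 2, 428 between 0.2 and 0.5 CPM, and 673 between 0.5 and 1 CPM, whereas 26000 (94.5%) were above 1 CPM. The ceiling falls between 2 and 3 counts, and 66 genes had 3 counts. Just inside it were Glyma.15G049200 and Glyma.20G068000, at 0.0949 CPM, with means over the other 5 of 91.7 and 40.3 CPM. Just outside it were Glyma.20G153900 and Glyma.20G152400, at 0.142 CPM, with means of 5.60 and 18.6 CPM. At the floor, Glyma.07G181700 and Glyma.15G273700 entered with 1.01 CPM in their lowest library, and Glyma.10G198200 and Glyma.18G076900 stayed out with 0.975 CPM. The same rule turned on each other V5 library selected 0 and 0 genes for the double mutant, 1 for single mutant replicate 1, and 0 and 3 for the wild type.

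The R5 libraries played no role in choosing the genes, and there the set divided. In all 6 R5 libraries, 125 of the 258 genes (48.4%) were above 1 CPM, against 25324 of the 27505 (92.1%). A smaller class of 38 genes (14.7%) did not exceed 0.1 CPM in any of the 6, against 401 of the 27505 (1.46%), and 14 of these had 0 counts in every one. The remaining 95 genes lay between the classes or crossed them. Without double mutant R5 replicate 1 and single mutant R5 replicate 2 the classes held 141 and 41 genes. The median of the mean R5 level was 2.32 CPM for the 258 genes and 15.6 CPM for the 27505. Of the 343 genes with the opposite V5 pattern, above 1 CPM in single mutant V5 replicate 2 and no more than 0.1 CPM in each of the remaining 5, 49 (14.3%) were above 1 CPM in all 6 R5 libraries and 112 (32.7%) exceeded 0.1 CPM in none of them. The 258 genes also had lower V5 levels than the 27505, and the part of that in these shares was not tested.

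These counts were close to each other across the R5 libraries. In the double mutant, 67 and 63 of the 258 genes were at 0.1 CPM or less, in the single mutant 58 and 69, and in the wild type 68 and 59. The summed level was 3302 and 3814 CPM in double mutant libraries, 3448 and 3313 CPM in single mutant libraries, and 3577 and 3796 CPM in wild-type libraries. Every R5 sum was above the 12.1 CPM of single mutant V5 replicate 2, where the rule held each gene to at most 0.1 CPM. The median gene stood at 1.47 and 1.76 CPM in double mutant libraries, 2.40 and 1.53 CPM in single mutant libraries, and 2.17 and 2.63 CPM in wild-type libraries.

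Over all 258 genes, 115 (44.6%) had a higher mean CPM over the R5 libraries than over the other 5 V5 libraries, against 68.9% of the 27505, and with TMM scaling, which sets libraries to a common level over most genes, 105 (40.7%) did, against 46.7%. Most of these were in the class above 1 CPM, which was defined by its R5 level. Its median was 13.6 CPM over the R5 libraries and 3.51 CPM over the 5 V5 libraries. On CPM, 109 of its 125 genes had the higher mean at R5, 23 of them by more than 10 times. These counts were not made with TMM scaling, nor over the 25324 of the 27505 genes above 1 CPM at R5. Only 6 of the 125 exceeded 10 CPM at V5. Glyma.15G089000 had the highest R5 level, at 358 and 523 CPM in double mutant libraries, 527 and 341 CPM in single mutant libraries, and 445 and 298 CPM in wild-type libraries. At V5 it had 0.0949 CPM in single mutant replicate 2, against 14.5 and 9.20 CPM in double mutant libraries, 6.40 CPM in single mutant replicate 1, and 9.11 and 8.19 CPM in wild-type libraries. All 6 R5 values were thus above every V5 value.

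Glyma.08G200000, second by R5 level, varied widely within genotypes. It stood at 16.7 and 171 CPM in the double mutant R5 libraries, 238 and 14.4 CPM in single mutant libraries and 195 and 537 CPM in wild-type libraries. Its lowest R5 values came from the 2 libraries that resembled each other, double mutant replicate 1 and single mutant replicate 2. At V5 it had 0 counts in single mutant replicate 2, against 14.2 and 16.7 CPM in double mutant libraries, 7.31 CPM in single mutant replicate 1, and 18.4 and 14.8 CPM in wild-type libraries.

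The 38 genes at 0.1 CPM or less at R5 are lower there than at V5 by definition. They had a median of 3.85 CPM over the 5 V5 libraries, and 6 of them were above 10 CPM there. The 95 genes in between had medians of 0.586 CPM at R5 and 3.89 CPM at V5, with 19 above 10 CPM at V5 and 6 higher at R5. The share with 0 counts in single mutant V5 replicate 2 was 28.0% in the class above 1 CPM, 35.8% in between and 34.2% in the class at 0.1 CPM or less. Genes at 0.1 CPM or less at R5 and genes above 1 CPM at R5 were both among those with no count in that library.

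**Figure D2:**
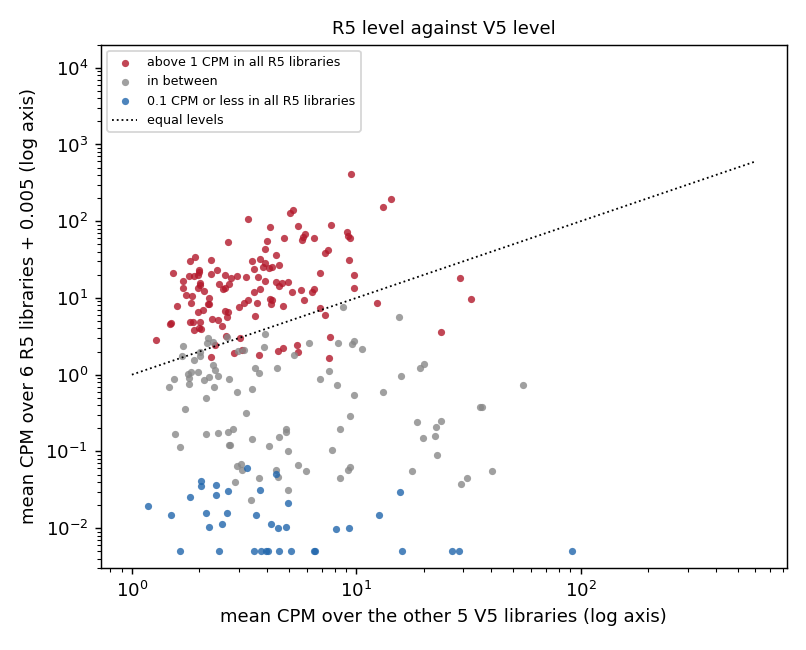
Mean CPM of each of the 258 genes over the 6 R5 libraries (vertical axis, 0.005 added, log scale) against its mean over the other 5 V5 libraries (horizontal axis, log scale), coloured by R5 class, with a dotted line at equal levels. Of the 125 genes above 1 CPM in all R5 libraries, a class set by R5 level, 109 lie above the line on CPM without TMM scaling. The gene with the highest V5 level, at 91.7 CPM, had 0 counts at R5.

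R5 and V5 values did not overlap for most of the genes, which also held for most of the 27505 genes. On CPM, 80 genes (31.0%) had all 6 R5 libraries above all of the other 5 V5 libraries, against 43.5% of the 27505 genes, and 106 (41.1%) had all R5 libraries below them, against 14.9%. With TMM scaling the counts were 68 (26.4%) above, against 26.1%, and 121 (46.9%) below, against 33.3%. The rule's V5 floor enters this comparison, so it was not tested.

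Among the 5 V5 libraries that contained them, the 258 genes varied more than other genes. The ratio of the highest to the lowest of the 5 CPM values had a median of 2.28, against 1.53 for the 27505 genes, and the median SD of log2(CPM + 0.1) was 0.494, against 0.248. The ratio was above 10 for 7 genes (2.71%), against 57 (0.207%). The 258 genes also had the lower levels given above, and the part of that in their spread was not tested.

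Single libraries among the 5 were high for a few of the genes. Wild-type V5 replicate 2 exceeded each of the other 4 more than 2-fold for 10 of the 258 genes (3.88%), against 0.204% of the 27505, and single mutant replicate 1 for 5 (1.94%), against 0.0618%. The double mutant libraries did so for 1 and 1 (0.388% each), against 0.0473% and 0.0509%, and wild-type replicate 1 for 0, against 0.196%. Wild-type replicate 2 was also the lowest of the 5 on CPM for 115 of the 258 genes (44.6%), against 65.2%. Glyma.16G062000 led the 10 genes high in wild-type replicate 2, with 0 counts in single mutant V5 replicate 2, against 12.3 and 28.5 CPM in double mutant libraries, 22.5 CPM in single mutant replicate 1, and 28.7 and 86.2 CPM in wild-type libraries. Glyma.05G222400 had 0.0949 CPM in single mutant V5 replicate 2, against 7.57 and 24.7 CPM in double mutant libraries, 9.62 CPM in single mutant replicate 1, and 36.4 and 77.9 CPM in wild-type libraries. In both genes wild-type replicate 2 was the highest library and wild-type replicate 1 came next. All 10 genes averaged between 0.0331 and 0.369 CPM at R5.

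**Figure D3:**
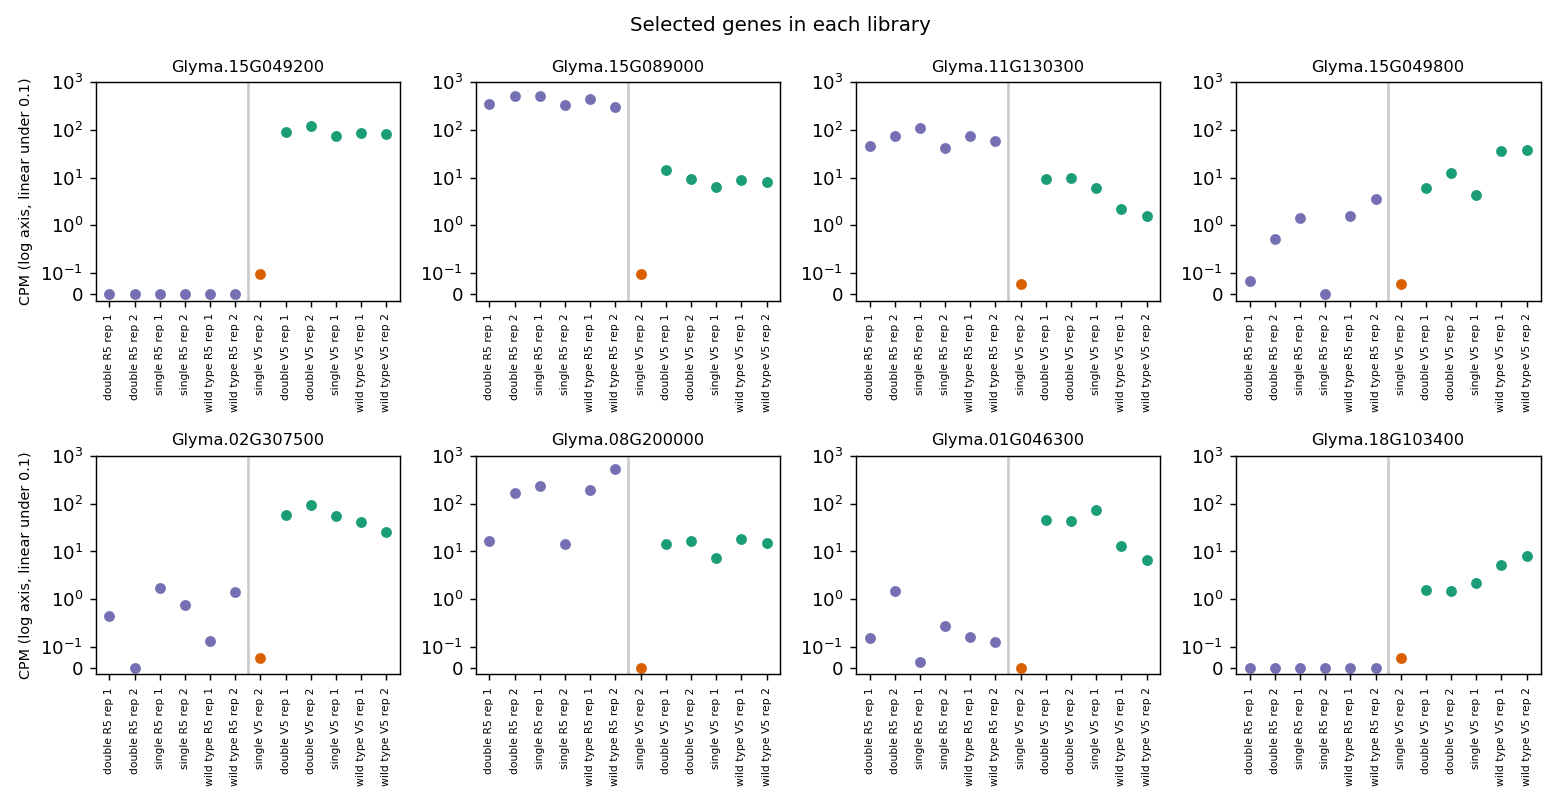
CPM (log scale, linear under 0.1 CPM) of the genes with the highest V5 level, the highest R5 level and the leading V5 differences, with 1 point for each library: R5 in purple, then single mutant V5 replicate 2 in orange and the other V5 libraries in green. Single mutant V5 replicate 2 lies at or under 0.0949 CPM in each of the genes shown, apart from the other V5 points.

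Double mutant and wild type were compared at V5 without the single mutant. The rule placed a floor of 1 CPM on each of these 4 libraries but set no difference between them. Because the rule used these values, the p-values, calls and shares of the 258 genes are descriptions. The 27505 genes under the same floor are given with all genes tested. No gene of the 258, nor any of the 32708 genes tested, passed an adjusted p of 0.05 (edgeR's quasi-likelihood test with Benjamini-Hochberg adjustment, 0% called). At an unadjusted p under 0.05 there were 95 of the 258 genes (36.8%), against 16.7% of all genes tested and 16.5% of the 27505, with 56 higher and 39 lower in the double mutant. DESeq2, run as an alternative, called 19 of the 258 genes (7.36%), against 2.2% of all genes. Of these, 12 were higher (4.65%, against 0.981% of all genes) and 7 lower (2.71%, against 1.22%). DESeq2 gave an unadjusted p under 0.05 to 70 (27.1%), against 9.51%. In edgeR, 65 of the 258 genes (25.2%) were called without wild-type V5 replicate 1, against 7.02% of all genes, and 12 (4.65%) without wild-type replicate 2, against 2.21%. Without double mutant replicate 2 there were 3 (1.16%), against 0.101%, and without double mutant replicate 1 there were 0, against 0%. In each of these fits 1 genotype has a single library, which is assumed to vary like the pair of the other genotype.

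The median absolute log2 fold change was 0.43, against 0.19 over all genes tested and 0.17 over the 27505. It was above 1 in size for 43 of the 258 genes (16.7%), against 4.97% of all genes tested and 2.08% of the 27505. The median signed log2 fold change was 0.14, against 0.00. After TMM scaling, both double mutant libraries were above both wild-type libraries for 102 of the 258 genes (39.5%), against 26.5% of all genes, and below both for 53 (20.5%), against 23.4%. Without TMM, on CPM, the split was 145 above (56.2%), against 60.8%, and 33 below (12.8%), against 5.71%. The part of their lower V5 levels in these sizes was not tested.

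**Figure D4:**
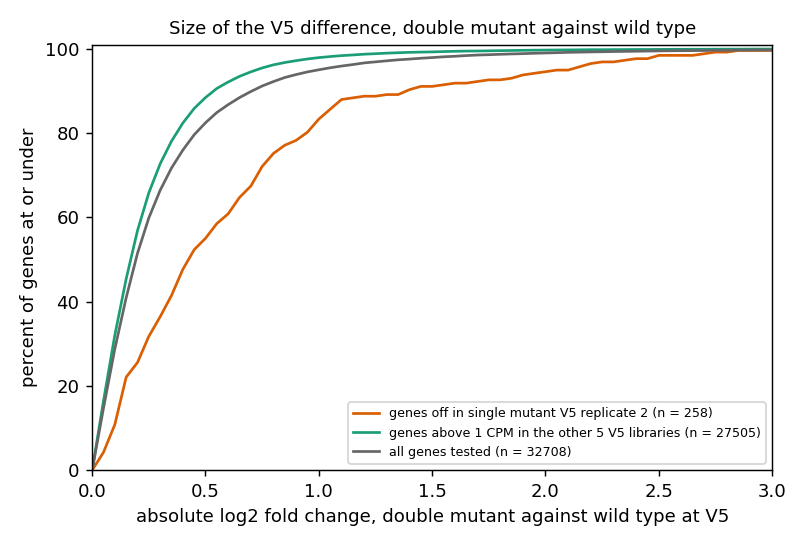
Cumulative percentage of genes (vertical axis) by absolute log2 fold change of double mutant against wild type at V5 (horizontal axis), for the 258 genes, the 27505 genes above 1 CPM in the other 5 V5 libraries and all genes tested. The curve of the 258 genes runs below the others at small changes, with medians of 0.43, 0.17 and 0.19.

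In the V5 comparison, whose p-values are descriptions because the rule used its libraries, Glyma.11G130300 had the smallest p of the 258 genes. It had 9.60 and 10.1 CPM in the double mutant V5 libraries, against 2.25 and 1.61 CPM in wild-type libraries, a log2 fold change of 2.04 (SE 0.18, edgeR adjusted p = 0.0548; DESeq2 adjusted p = 2.35e-07). Single mutant V5 replicate 1 stood at 6.11 CPM and replicate 2 at 0.0475 CPM. Glyma.01G046300 had 46.1 and 44.1 CPM in double mutant libraries, against 12.9 and 6.48 CPM in wild-type libraries, a log2 fold change of 1.93 (SE 0.22, edgeR adjusted p = 0.0573; DESeq2 adjusted p = 2.68e-11). Its level in single mutant replicate 1 was 72.6 CPM, above both double mutant libraries, and replicate 2 had 0 counts, at least 256-fold lower than the mean of the other 5. Both of these single mutant differences from the wild type use the same wild-type libraries as the double mutant's.

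In the other direction, Glyma.15G049800 had 5.98 and 12.5 CPM in double mutant libraries, against 36.1 and 37.6 CPM in wild-type libraries, a log2 fold change of -2.31 (SE 0.30, edgeR adjusted p = 0.0751; DESeq2 adjusted p = 1.48e-11). It stood at 4.33 CPM in single mutant V5 replicate 1. Glyma.18G103400 had 1.54 and 1.49 CPM in double mutant libraries, against 5.29 and 8.19 CPM in wild-type libraries (log2 fold change -2.49, SE 0.33, edgeR adjusted p = 0.0754; DESeq2 adjusted p = 5.65e-07), with 2.21 CPM in single mutant replicate 1. At R5 the 4 genes differed widely. Glyma.11G130300 lay between 41.2 and 112 CPM, Glyma.01G046300 between 0.0289 and 1.48 CPM, Glyma.15G049800 between 0 and 3.64 CPM, and Glyma.18G103400 had 0 counts throughout. In all 4 genes, which were chosen for small p, the double mutant and wild-type V5 libraries did not overlap. With 1 wild-type library, and the spread taken from the double mutant pair, edgeR called all 4 without wild-type replicate 1 (adjusted p 5.53e-05 to 0.00100) and also without wild-type replicate 2 (0.000948 to 0.00840). Without double mutant replicate 1 their adjusted p was 0.216 to 0.324, and without double mutant replicate 2 it was 0.0226 to 0.128, the spread then coming from the wild-type pair.

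At R5, genotype comparisons could be made on all 6 libraries, none of which the rule used. Of the 258 genes, 185 had enough counts for the test and 73 did not, so the counts that follow cover the better expressed genes only. None of the 185 genes was called in any of the 3 comparisons by edgeR's quasi-likelihood test with Benjamini-Hochberg adjustment, and 0% of the 37058 genes tested were. The smallest adjusted p among the 185 was 0.779 for double mutant against wild type, 0.585 for single mutant against wild type and 1 for double against single mutant.

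For double mutant against wild type at R5, 9 of the 185 genes (4.86%) had an unadjusted p under 0.05 in edgeR, against 2.94% of all genes, and DESeq2 called 0 of the 185 at an adjusted p under 0.05, against 0.157%. For single mutant against wild type, 7 of the 185 genes (3.78%) did so, against 5.49%, and DESeq2 called 0, against 0.197%. For double against single mutant, 0 of the 185 did so, against 0.267%, and DESeq2 called 0 genes of any kind. DESeq2 gave an unadjusted p under 0.05 to 25 of the 185 genes (13.5%) for double mutant against wild type, against 5.69% of all genes. It did so for 19 (10.3%) for single mutant against wild type, against 8.97%, and for 0 between the mutants, against 0.337%. The median log2 fold changes of the 185 genes were -0.16, -0.29 and 0.07, against -0.02, 0.00 and 0.00 over all genes. Without double mutant replicate 1 and single mutant replicate 2 they were 0.08, -0.17 and 0.17, with 0 genes called, so the sign for double mutant against wild type turned, as it did without double mutant replicate 1 alone (0.07). Without double mutant replicate 2 the medians were -0.46 against wild type and -0.19 against single mutant. Without single mutant replicate 1 they were -0.52 for single mutant against wild type and 0.23 for double against single mutant. The median between the mutants was also 0.23 without double mutant replicate 1, and 0.04 without single mutant replicate 2.

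The genes with the smallest p in each direction were not called in any R5 comparison. Glyma.10G185700 stood at 29.5 and 29.6 CPM in double mutant libraries, against 20.7 and 19.6 CPM in wild-type libraries, a log2 fold change of 0.67 (SE 0.22, edgeR adjusted p = 0.779). Glyma.15G206300 stood at 1.12 and 1.41 CPM in double mutant libraries, against 2.95 and 5.32 CPM in wild-type libraries, a log2 fold change of -1.60 (SE 0.41). In both genes the groups did not overlap. For single mutant against wild type, Glyma.06G010900 had 13.1 and 14.4 CPM in single mutant libraries, against 9.66 and 8.66 CPM in wild-type libraries, a log2 fold change of 0.65 (SE 0.23, edgeR adjusted p = 0.585). Glyma.20G006600 had 12.6 and 9.41 CPM in single mutant libraries, against 17.0 and 17.2 CPM in wild-type libraries, a log2 fold change of -0.58 (SE 0.20). These groups did not overlap either. Because these genes were chosen for small p, their separation is a description only. The share of all genes without overlap at R5 was not counted. Next by p were Glyma.07G001400, with a log2 fold change of 1.45 (SE 0.52), and Glyma.03G257500. Glyma.03G257500 had 2.25 and 0.998 CPM in single mutant libraries, against 3.53 and 6.98 CPM in wild-type libraries, a log2 fold change of -1.66 (SE 0.59), and 0.787 and 1.97 CPM in double mutant libraries. Between the mutants, Glyma.02G000700 had 46.5 and 60.4 CPM in double mutant libraries, against 35.4 and 43.5 CPM in single mutant libraries, a log2 fold change of 0.47 (SE 0.23, edgeR adjusted p = 1). Glyma.17G247400 had 5.84 and 5.04 CPM in double mutant libraries, against 12.2 and 6.41 CPM in single mutant libraries, a log2 fold change of -0.69 (SE 0.34).

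The genes were spread over the genome as far as their IDs tell it. The chromosome number in the ID ranged over all 20 chromosomes, from 6 genes on chromosome 4 (0.233% of that chromosome's IDs) to 19 on chromosome 2 (0.608%), and 1 gene had an unplaced ID. Chromosomes 20 and 10, whose numbers match the names of the edited loci, held 15 genes (0.600%) and 11 genes (0.368%). Over all IDs the share was 0.460%. There were 7 pairs of consecutive IDs among the 258, and in 4 of these both genes fell in the same R5 class. In the pair Glyma.18G103400 and Glyma.18G103500 they did not. Both were above 1 CPM in the other 5 V5 libraries, while at R5 the first had 0 counts in all 6 libraries and the second averaged 87.0 CPM.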

How the data were processed

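RNA-seq gene counts from 12 libraries were analysed. Per the labels' protocols, RNA was column-purified, DNase-treated and made into libraries by a standard Illumina protocol. The submitters' processing notes name Bowtie, HISAT2 and HTSeq, without versions. The sources used here do not name the genome build, annotation, strand setting or treatment of multiply mapped reads, so related copies and adjacent genes may share counts. The deposited values are raw counts per gene, as whole numbers, and the authors applied no normalization to them. CPM used each library's total count.

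The 258 genes and all lists were chosen with earlier results of these data known. R5 comparisons used edgeR 4.0.16 (R 4.3.3) with TMM, filterByExpr (minimum count 10, minimum total 15) and the quasi-likelihood test on 6 libraries with 3 residual degrees of freedom. The V5 comparison used 4 libraries (2 residual degrees of freedom), without the single mutant, whose spread the rule fixes. Calls needed a Benjamini-Hochberg adjusted p under 0.05 over all genes tested. The SE printed with a log2 fold change was derived from the edgeR test. It is the absolute log2 fold change divided by the square root of the quasi-likelihood F statistic. DESeq2 1.42.0, other filters and scalings, a replicate block and leaving out libraries were alternatives.

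Named genes were, in each comparison, those with the smallest p in each direction, those highest at each stage, and those beside each threshold. At most 2 of each kind are printed, because none of the 56044 IDs matched the 59048 genes of the RefSeq table. The 19 gene lists defined by product words, including the seed and leaf markers, could therefore not be filled, and no promoter motif was searched. Genes with 0 counts are given a floor of 3 counts.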

Additional observations from a re-analysis of the deposited data

Results flagged for a closer look

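Of the genes named in the R5 comparisons, 4 had double mutant libraries that lay on 1 side of the wild type at R5 and on the other side at V5. The values are log2 ratios of TMM-scaled group means, and the difference between the stages was not tested. These 4 genes were named for small p-values at R5. The share of all genes that changed sides in this way was not counted, so the 4 genes are a description and not a result about the set. At V5 alone, after TMM scaling, 26.5% of all genes tested had both double mutant libraries above both wild-type libraries. Another 23.4% had both below. Glyma.10G185700 had a ratio of 0.69 at R5 and -2.13 at V5, a difference of 2.82, with 1.11 and 3.11 CPM in the double mutant V5 libraries, against 5.49 and 9.21 CPM in the wild type. Glyma.15G206300 had ratios of -1.58 at R5 and 1.12 at V5, a difference of -2.69, with 9.12 and 5.75 CPM in the double mutant at V5, against 4.36 and 1.41 CPM in the wild type. For Glyma.03G257500 they were -1.82 at R5 and 0.71 at V5, a difference of -2.53. For Glyma.02G000700 they were 0.58 at R5 and -1.06 at V5, a difference of 1.64. None of the 4 genes passed the adjusted threshold in edgeR at either stage. Each was at 0.1 CPM or less in single mutant V5 replicate 2, as the rule demands.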

How the results depend on the processing

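At R5, 178 to 244 genes of the set were tested, depending on the setting. In each of the 3 comparisons 0 were called under every setting run, DESeq2 included, except a crossed replicate block chosen after seeing the data. That block called 1 gene in double mutant (0.541%, against 0.13% of all genes) and 1 in single mutant (0.541%, against 0.0216%) against wild type. The replicate block as numbered called 0, 0 and 0. At V5, the main count was 0 and RLE scaling called 0. So did a fit on all 6 V5 libraries, where the rule fixes the single mutant's spread. The replicate block called 33 (12.8%, against 2.43% of all genes) and DESeq2 19 (7.36%, against 2.2%). Without a filter on low counts 2 were called (0.775%, against 0.114%). With no normalization beyond the library total 10 were called (3.88%, against 0.887%). That last setting, also chosen after seeing the data, moved the median log2 fold change of all genes to 0.31. Leaving out 1 library each gave 0 to 65 (0% to 7.02%). Deviations of same-numbered libraries correlated at -0.751, 0.416 and -0.411 at R5. At V5, where only double mutant and wild type were compared, the correlation was 0.0722. These values do not settle whether the numbers pair the libraries. A ceiling of 0.2 CPM gave 404 genes in place of 258, and a floor of 0.5 or 2 CPM gave 458 or 113. A limit of 0.05 CPM put 25 genes in place of 38 in the low R5 class. The causes were not tested, and no named gene reversed. With 2 libraries a group and at most 3 residual degrees of freedom, a small difference could be missed.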
